A study of Mus musculus with 16 samples.

Results

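The S100 and annexin genes described here were S100a4, S100a6, S100a10, S100a11, Anxa1, Anxa2, Anxa3, Anxa5 and Anxa6, 9 of the 24363 genes tested on mouse liver arrays. They were taken by name from the gene probes of each array. The processed signal was quantile normalized over all 16 arrays on the log2 scale, and the probe with the highest mean stood for each gene. All 9 genes passed the filter on dim probes, and each of their probes was well above background on 16 of 16 arrays.

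The study asked how loss of Lcn2, the gene of the secreted protein lipocalin 2, alters the liver's response to injury. RNA came from whole liver of male BALB/c mice, an inbred strain, aged 6 to 8 weeks, that were either wild type (WT) or Lcn2-/-. Lcn2-/- mice lack the gene in every cell, and the allele was made in other inbred strains and backcrossed to BALB/c over several generations. Carbon tetrachloride (CCl4), which hepatocytes convert into a toxic radical, was given in corn oil by intraperitoneal injection at 0.5 ml/kg, 2 times per week for 4 weeks, and liver was collected 48 h later. The groups were WT control (n = 4 arrays), Lcn2-/- control (n = 3), WT CCl4 (n = 5) and Lcn2-/- CCl4 (n = 4), and controls received corn oil. The labels call the arrays replicates and do not state that each came from another animal, so p-values measure the spread between these arrays.

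S100 proteins are small calcium sensors, and annexins are proteins that attach to membrane phospholipids when calcium rises. The families meet in complexes: S100A10 pairs with annexin A2 into a cell surface complex that binds plasminogen and its activator, and S100A11 binds annexin A1. In injured liver, S100A4, S100A6 and annexin A2 are known mainly from non-parenchymal and dedifferentiating cells, while annexin A6 is also a protein of the hepatocyte's endocytic membranes.

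Of the 9 genes, 6 had a 250-base window before the transcription start in the RefSeq table of assembly GRCm38.p6: S100a4, S100a6, S100a11, Anxa1, Anxa2 and Anxa5. The windows of S100a11 and Anxa2, which were each other's nearest in pattern over the arrays among the 9 genes, are shown with that of Anxa1, the gene with the largest CCl4 response of the 9 in WT when all arrays were used. Each is written 5′ to 3′ on the gene's own strand and ends 1 base before the start, at chr3:93520246-93520495 on the plus strand for S100a11, chr9:69453433-69453682 on the plus strand for Anxa2 and chr19:20390672-20390921 on the minus strand for Anxa1. Capitals mark TGANTCA, the letters of the AP-1 motif, which read the same on both strands, and TATAAA, the TATA box, searched on both strands.
S100a11: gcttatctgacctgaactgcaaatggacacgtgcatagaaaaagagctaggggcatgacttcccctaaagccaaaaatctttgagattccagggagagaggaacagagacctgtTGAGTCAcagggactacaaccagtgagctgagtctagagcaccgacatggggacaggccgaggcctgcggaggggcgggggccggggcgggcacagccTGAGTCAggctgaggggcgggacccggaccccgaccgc
Anxa2: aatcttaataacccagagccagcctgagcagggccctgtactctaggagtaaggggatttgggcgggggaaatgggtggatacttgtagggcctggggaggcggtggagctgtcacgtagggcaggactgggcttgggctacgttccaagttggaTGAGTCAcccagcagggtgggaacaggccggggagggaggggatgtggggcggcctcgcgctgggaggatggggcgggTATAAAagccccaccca
Anxa1: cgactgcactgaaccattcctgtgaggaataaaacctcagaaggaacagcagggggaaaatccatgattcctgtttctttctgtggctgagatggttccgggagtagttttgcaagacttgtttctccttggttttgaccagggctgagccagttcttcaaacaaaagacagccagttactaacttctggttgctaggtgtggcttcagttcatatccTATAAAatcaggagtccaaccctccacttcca
The S100a11 window held TGANTCA at -136 and -38 (position of its first base relative to the start), and the Anxa2 window held it at -95. The other 4 windows did not hold these letters, and 6.75% of the 32851 promoter windows of the table did. TATAAA stood at -32 in Anxa1, at -17 in Anxa2 and at -31 in S100a4, and 12.4% of all windows held it. GGGCGG, the letters of the GC box, occurred 3 times each in S100a11 and Anxa2 on either strand and in none of the other 4, against 32.7% of all windows. These matches describe the letters alone.

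Lcn2 itself bore out the genotype labels, at a log2 signal of 15.16 ± 1.66 (SD) for WT control, 14.89 ± 0.959 for WT CCl4, 11.01 ± 0.532 for Lcn2-/- control and 11.56 ± 0.698 for Lcn2-/- CCl4. The share of spots well above background ranged from 51.6% to 60.9%. Slide 1 held all controls and WT CCl4 array 1, and slide 2 held the other CCl4 arrays. The Lcn2-/- arrays lay in the lower tier of the slides and the WT arrays in the upper, again with WT CCl4 array 1 as the exception. WT control array 3 and Lcn2-/- control array 3 stood apart from their groups, with summed macrophage marker signals of 239000 and 252000 against 85200 to 115000 in the other 5 controls, so the main CCl4 and genotype counts of the 9 genes below are also given without both.

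CCl4 raised 6 of the 9 genes in WT, namely Anxa1, Anxa2, Anxa3, Anxa5, S100a6 and S100a11, and lowered 0 of 9. It raised 5 of the 9 in Lcn2-/- mice, the same genes except S100a6. A gene counts as raised here where limma's adjusted p (Benjamini-Hochberg over all genes tested) was under 0.05, which held for 8.05% of all genes in WT and for 6.56% in Lcn2-/- mice, while 8.63% and 5.58% fell. The difference was above 0 for 9 of 9 genes in each genotype, against 46.5% and 47.6% of all genes. CCl4 and control arrays did not overlap for 3 of 9 genes in WT (Anxa1, Anxa2 and Anxa3) and for 7 of 9 in Lcn2-/- (all but S100a4 and S100a10), against 8.09% and 12.1% of all genes separated upward. The median log2 difference of the 9 genes was 1.51 in WT and 1.18 in Lcn2-/-, against -0.03 and -0.02 over all genes tested. Without both controls numbered 3, an omission chosen after the data were seen, the same genes and S100a4 passed in WT (7 of 9) and the same 5 passed in Lcn2-/-, where 11.3% and 8.51% of all genes rose. The WT differences were then 3.09 for Anxa1, 2.05 for Anxa2, 2.38 for Anxa3, 0.9 for Anxa5, 2.17 for S100a6 and 1.92 for S100a11, each above its value with all arrays. In Lcn2-/- mice they were 2.21, 1.42, 2.39, 1 and 1.9 for Anxa1, Anxa2, Anxa3, Anxa5 and S100a11. In bulk liver, more cells of a type and more RNA per cell cannot be told apart.

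Slide and treatment were nearly the same split, so the comparison inside slide 1 rests on WT CCl4 array 1 alone. There, the log2 difference from the 4 WT controls was 2.29 for Anxa1, 1.74 for Anxa2, 2.27 for Anxa3, 0.53 for Anxa5, 2.01 for S100a6 and 1.65 for S100a11. The number of genes past the threshold was 0 of 9 within slide 1, where 1.85% of all genes rose, and the lowest adjusted p of the 9 was 0.0989 for Anxa1. With slide as a fixed term it was 1 of 9, Anxa1, in WT (adjusted p = 0.0497) and 0 of 9 in Lcn2-/- mice, against 3.31% and 1.38% of all genes. The Lcn2-/- differences in that fit were 1.98 for S100a11, 2.11 for Anxa3, 1.47 for Anxa2, 1.35 for Anxa1 and 0.65 for Anxa5 (adjusted p from 0.148 to 0.469). All of these were estimated through WT CCl4 array 1. That array had the highest summed pancreas marker signal of the WT CCl4 arrays, 25500 against 8430 to 16400 in the others. Its summed mesothelial marker signal was also the highest, 7400 against 2970 to 4160.

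**Figure D1:**
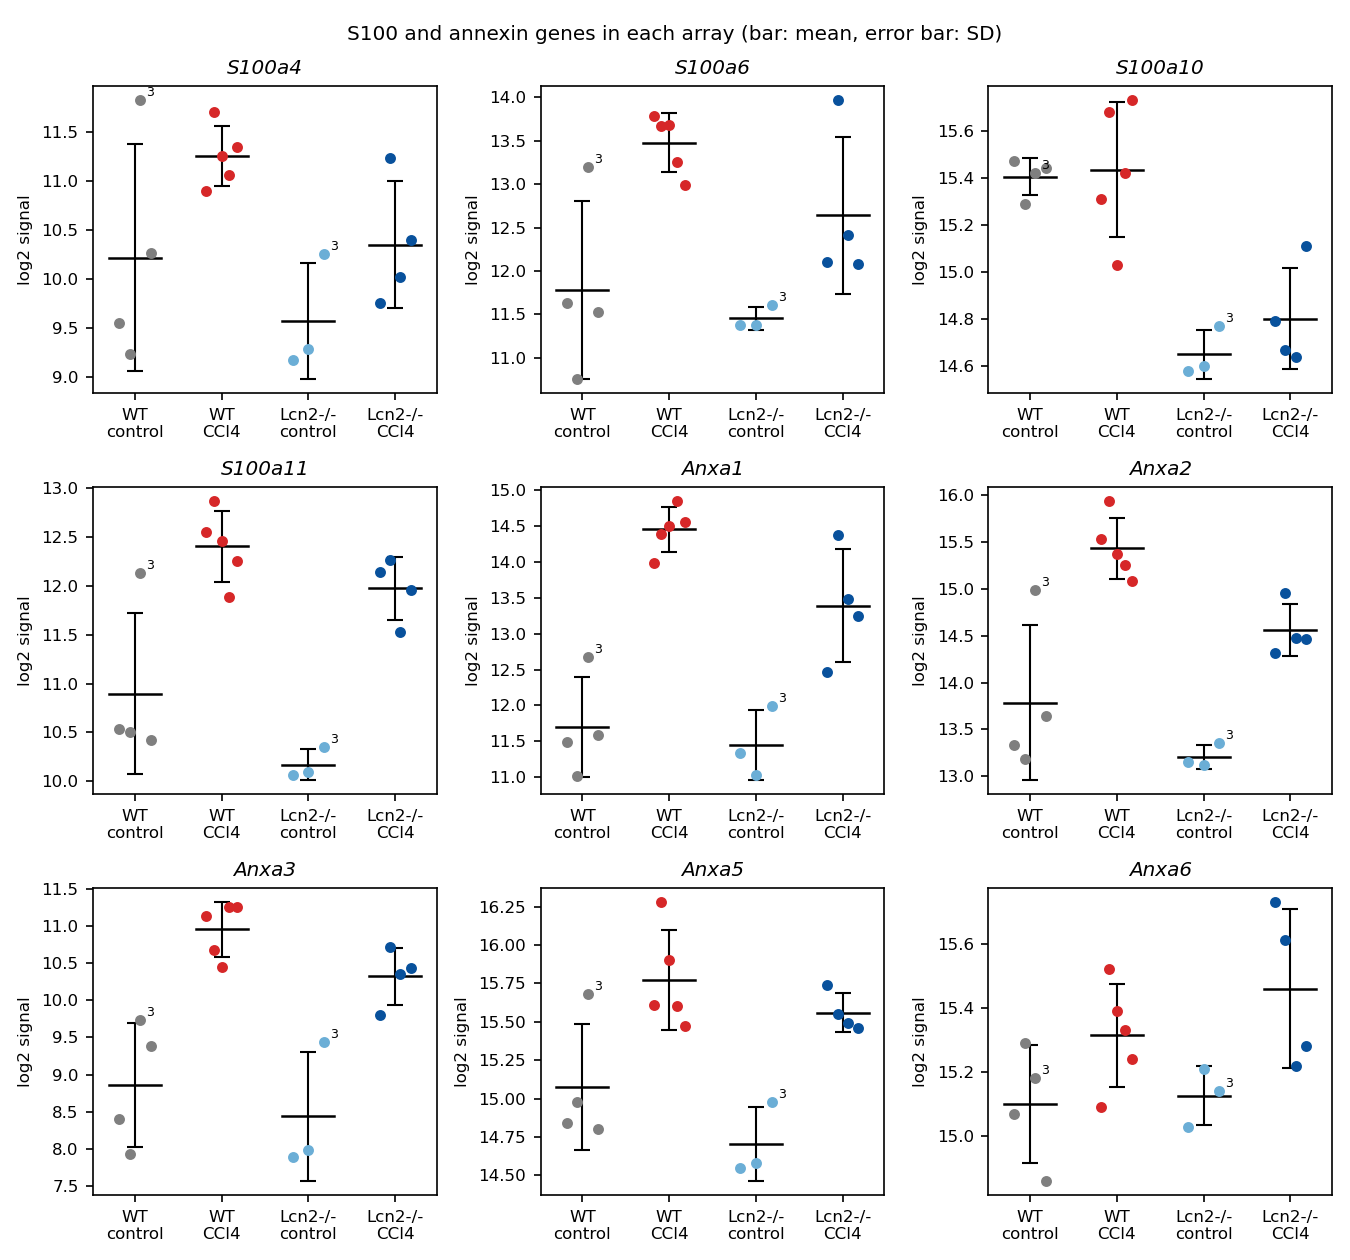
Log2 quantile-normalized signal of the 9 S100 and annexin genes in each of the 16 arrays, 1 point per array, by group, with the mean and SD of each group. The digit 3 marks control array 3 of each genotype, which lies highest among the WT controls for 7 of the 9 genes and highest among the Lcn2-/- controls for 8 of the 9.

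Among the annexins, Anxa1 encodes a mediator that limits leukocyte recruitment. It measured 11.49, 11.02, 12.67 and 11.59 in WT controls 1 to 4 and 13.98, 14.39, 14.5, 14.85 and 14.56 in WT CCl4 arrays 1 to 5. In Lcn2-/- mice it measured 11.33, 11.03 and 11.99 in controls and 12.46, 14.38, 13.48 and 13.25 under CCl4. Every CCl4 array lay above every control array of its genotype in both genotypes, though Lcn2-/- CCl4 array 1 came closest to the controls. The WT difference was 2.76 on the log2 scale (SE 0.371, adjusted p = 0.000168 by limma), a 6.8-fold rise, and the Lcn2-/- difference was 1.94 (SE 0.422, adjusted p = 0.00795), a 3.84-fold rise. The other Anxa1 probe rose by 2.85 in WT and by 2.27 in Lcn2-/-, with adjusted p of 9.3e-05 and 0.00221 by limma. The Anxa1 probes lie at chr19:20447938-20447997 and chr19:20449722-20449781 (mm9, minus strand).

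Anxa2 (probe chr9:69339532-69339591, mm9, plus strand) encodes the plasma membrane partner of S100A10. It measured 13.33, 13.18, 14.99 and 13.64 in WT controls and 15.53, 15.94, 15.37, 15.26 and 15.08 in WT CCl4 arrays. The Lcn2-/- arrays gave 13.15, 13.12 and 13.35 in controls and 14.32, 14.96, 14.48 and 14.47 under CCl4. The groups did not overlap within either genotype, but WT control 3 came close to the lowest WT CCl4 array. Anxa2 rose by 1.65 in WT (SE 0.302, adjusted p = 0.00179 by limma), which is 3.14-fold, and by 1.35 in Lcn2-/- (SE 0.344, adjusted p = 0.0196), which is 2.55-fold. The Lcn2-/- call was lost without Lcn2-/- control 1 (adjusted p = 0.0706) or 2 (0.0748).

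Anxa3 (probe chr5:97253925-97253984, mm9, plus strand) encodes an annexin abundant in neutrophils. It measured 8.4, 7.93, 9.73 and 9.38 in WT controls and 11.13, 10.68, 10.45, 11.26 and 11.25 in WT CCl4 arrays. The Lcn2-/- values were 7.89, 7.98 and 9.44 in controls and 9.8, 10.71, 10.35 and 10.43 under CCl4. The groups did not overlap, and control 3 was again the highest control of each genotype. Anxa3 rose by 2.09 in WT (SE 0.389, adjusted p = 0.00196 by limma), which is 4.26-fold, and by 1.89 in Lcn2-/- (SE 0.443, adjusted p = 0.0123), which is 3.7-fold. Without Lcn2-/- control 1 or 2 the adjusted p in Lcn2-/- was 0.0713 or 0.0687.

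Anxa5 (probe chr3:36348065-36348124, mm9, minus strand) encodes the annexin that binds exposed phosphatidylserine. It measured 14.84, 14.98, 15.68 and 14.8 in WT controls and 15.61, 16.28, 15.9, 15.6 and 15.47 in WT CCl4 arrays, so WT control 3 lay above 3 of the CCl4 arrays. Values in Lcn2-/- mice were 14.55, 14.58 and 14.98 in controls and 15.74, 15.55, 15.49 and 15.46 under CCl4, with no overlap. Anxa5 rose by 0.70 in WT (SE 0.198, adjusted p = 0.0269 by limma) and by 0.86 in Lcn2-/- (SE 0.225, adjusted p = 0.0222), or 1.62-fold and 1.82-fold. The WT call was lost without WT control 1, 2 or 4 or without WT CCl4 array 2 or 3 (adjusted p from 0.053 to 0.0959), and in a fit of only the groups compared (0.071), and the Lcn2-/- call without Lcn2-/- control 1 or 2 or Lcn2-/- CCl4 array 1 (0.0568 to 0.0966).

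Anxa6 (probe chr11:54792616-54792675, mm9, minus strand), which encodes an annexin of endocytic membranes, did not pass the test in either genotype. It ranged from 14.86 to 15.29 in WT control, from 15.09 to 15.52 in WT CCl4, from 15.03 to 15.21 in Lcn2-/- control and from 15.22 to 15.73 in Lcn2-/- CCl4. Its log2 difference was 0.21 in WT (95% interval -0.07 to 0.49, adjusted p = 0.295 by limma) and 0.33 in Lcn2-/- (0.01 to 0.65, adjusted p = 0.172), although the Lcn2-/- groups did not overlap.

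Among the S100 genes, S100a6 (probe chr3:90418160-90418219, mm9, plus strand) encodes calcyclin, a protein of proliferating and mesenchymal cells. It measured 11.63, 10.76, 13.2 and 11.53 in WT controls and 13.79, 13.67, 13.68, 13.25 and 12.99 in WT CCl4 arrays. WT control 3 alone overlapped with the CCl4 arrays. For Lcn2-/- mice the signal was 11.38, 11.38 and 11.61 in controls and 12.1, 13.97, 12.41 and 12.08 under CCl4, with array 2 far above the other 3 CCl4 arrays. S100a6 rose by 1.70 in WT (SE 0.445, adjusted p = 0.0179 by limma), or 3.24-fold, a call lost without WT control 1 (0.0549) or 2 (0.0713). The Lcn2-/- difference was 1.18 (95% interval 0.1 to 2.27, adjusted p = 0.149), although the groups did not overlap. It was 0.74 without Lcn2-/- CCl4 array 2 (adjusted p = 0.31), and with array weights it was 1.27 and passed the test (0.0209).

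S100a4 encodes the fibroblast and macrophage protein also called FSP1, and its probe (chr3:90409734-90409793, mm9, plus strand) lies 8.43 kb from that of S100a6. It measured 9.55, 9.24, 11.83 and 10.27 in WT controls and 10.9, 11.71, 11.26, 11.06 and 11.35 in WT CCl4 arrays, so WT control 3 exceeded all 5 CCl4 arrays. The Lcn2-/- signal was 9.18, 9.29 and 10.26 in controls and 9.76, 11.24, 10.02 and 10.4 under CCl4. The difference was 1.03 in WT (SE 0.454, adjusted p = 0.138 by limma) and 0.78 in Lcn2-/- (SE 0.517, adjusted p = 0.357). Without WT control 3, S100a4 passed the test in WT, at 1.57 with an adjusted p of 0.00628, as it did with array weights (1.33, adjusted p = 0.0156). Without Lcn2-/- CCl4 array 2 the Lcn2-/- difference was 0.48. Its other probe gave 1.49 in WT and 1.58 in Lcn2-/-, with adjusted p of 0.171 and 0.229 by limma.

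S100a11 (probe chr3:93330022-93330081, mm9, plus strand), which encodes calgizzarin, measured 10.54, 10.5, 12.13 and 10.42 in WT controls and 12.55, 12.87, 12.46, 11.89 and 12.26 in WT CCl4 arrays. Among Lcn2-/- arrays it was 10.06, 10.1 and 10.35 in controls and 12.14, 12.27, 11.53 and 11.96 under CCl4. WT control 3 lay above WT CCl4 array 4, and the Lcn2-/- groups did not overlap. S100a11 rose by 1.51 in WT (SE 0.311, adjusted p = 0.00403 by limma), or 2.85-fold, and by 1.81 in Lcn2-/- (SE 0.354, adjusted p = 0.00407), or 3.5-fold. Leaving out any single array kept both calls, while within the upper tier of the slides the WT adjusted p was 0.0501 by limma. The values of S100a11 are uncertain to the extent that its probe takes up transcripts of near-identical copies of the gene, which was not tested.

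S100a10 (probe chr3:93368437-93368496, mm9, plus strand), 38.4 kb from the S100a11 probe, encodes the S100 protein of the annexin A2 complex. It measured 15.47, 15.29, 15.42 and 15.44 in WT controls and 15.31, 15.68, 15.03, 15.42 and 15.73 in WT CCl4 arrays. The Lcn2-/- livers gave 14.58, 14.6 and 14.77 in controls and 14.79, 14.67, 14.64 and 15.11 under CCl4. Control and CCl4 arrays overlapped in both genotypes. The CCl4 difference was 0.03 in WT (95% interval -0.28 to 0.33, adjusted p = 0.926 by limma) and 0.15 in Lcn2-/- (-0.19 to 0.5, adjusted p = 0.582). The sign of the WT value was not stable: with scaling to the 75th percentile of each array it was -0.16, and that scaling moved the median of all genes from -0.03 to -0.16.

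**Figure D2:**
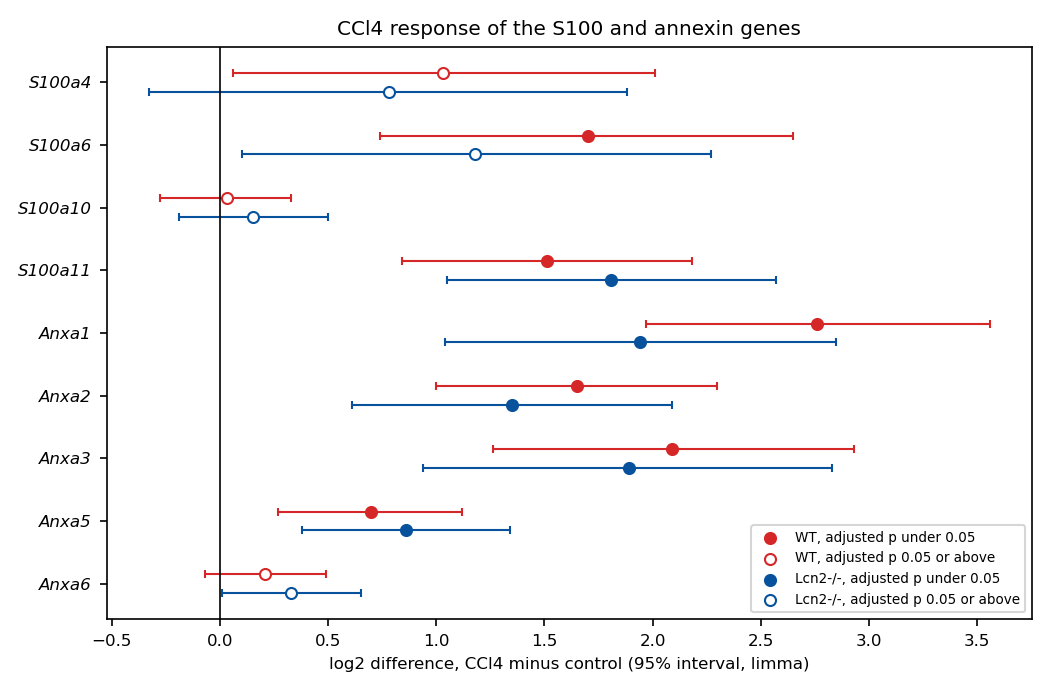
Log2 difference between CCl4 and control for each of the 9 genes with its 95% interval from limma, WT in red and Lcn2-/- in blue, filled where the adjusted p was under 0.05. Values run from 0.03 for S100a10 to 2.76 for Anxa1 in WT and from 0.15 to 1.94 for the same genes in Lcn2-/-.

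The size of the response was compared between genotypes by the interaction term, in which a negative value is a smaller response in Lcn2-/-. It ranged from -0.82 for Anxa1 (95% interval -2.03 to 0.38) to 0.30 for S100a11 (-0.71 to 1.31), and 0 of the 9 genes passed the test, with an unadjusted p under 0.05 for 0 of 9 as well. Over all genes, limma called 0.0534%, and 3.31% had an unadjusted p under 0.05. With 1 array left out, the Anxa1 interaction ranged from -1.15 (without WT control 3 or Lcn2-/- CCl4 array 2) to -0.51 (without Lcn2-/- CCl4 array 1). For S100a6, which without array weights passed the test in WT alone, the interaction was -0.51 (95% interval -1.96 to 0.93, adjusted p = 1 by limma) and ranged from -0.99 without WT control 3 to -0.17 without WT control 2, so its response was not shown to differ between genotypes.

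Between genotypes under CCl4, 8 of the 9 genes measured lower in Lcn2-/- than in WT, against 50.9% of all genes, Anxa6 being the exception, but 0 of 9 passed limma's adjusted threshold, which 0.649% of all genes did. At an unadjusted p under 0.05 there were 3 of 9, S100a10, Anxa1 and Anxa2, against 13.7% of all genes. The differences were -1.07 for Anxa1 (95% interval -1.86 to -0.27, adjusted p = 0.237), -0.88 for Anxa2 (-1.53 to -0.23, adjusted p = 0.234) and -0.63 for S100a10 (-0.93 to -0.32, adjusted p = 0.066). Anxa2 was the single gene of the 9 whose groups did not overlap, 14.32 to 14.96 in Lcn2-/- CCl4 against 15.08 to 15.94 in WT CCl4, a separation downward that 3.35% of all genes showed. Its adjusted p was 0.0428 without WT control 3 and 0.0437 without both controls numbered 3. For the remaining genes the differences were -0.90 for S100a4, -0.84 for S100a6, -0.63 for Anxa3, -0.43 for S100a11, -0.21 for Anxa5 and 0.14 for Anxa6. With 1 array left out in turn they ranged from -1.28 to -0.65 for S100a6, from -0.56 (without WT CCl4 array 4) to -0.28 (without Lcn2-/- CCl4 array 3) for S100a11, from -0.29 to -0.08 (without WT CCl4 array 2) for Anxa5 and from 0.05 (without Lcn2-/- CCl4 array 1) to 0.22 (without Lcn2-/- CCl4 array 3) for Anxa6. Genotype and slide tier nearly coincide. With tier as a fixed term, estimated through WT CCl4 array 1, the values were -0.59 for Anxa1, -0.54 for S100a4 and -0.04 for Anxa5. In that fit they were -0.97 for Anxa2, -1.15 for S100a6, -0.80 for Anxa3, -0.57 for S100a11 and 0.37 for Anxa6.

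In controls, the same 8 genes measured lower in Lcn2-/-, against 52.7% of all genes, and 0 of 9 passed the test, against 0.517% of all genes. At an unadjusted p under 0.05 there was 1 of 9, S100a10, against 8.32% of all genes. The groups did not overlap for S100a10 and S100a11, against 5.58% of all genes separated downward. The difference was -0.76 for S100a10 (95% interval -1.1 to -0.41, adjusted p = 0.0597 by limma) and -0.73 for S100a11 (-1.48 to 0.03, adjusted p = 0.644). The other 6 lower genes ranged from -0.65 for S100a4 to -0.24 for Anxa1, and Anxa6 was at 0.03. The direction in controls leaned on WT control 3: without it S100a6 was at 0.15 and Anxa1 at 0.08, and 6 of 9 genes were lower. The difference of S100a11 was then -0.31, that of S100a4 was -0.11, and those of Anxa2, Anxa3 and Anxa5 were -0.17, -0.13 and -0.17, while S100a10 stayed at -0.75. Without Lcn2-/- control 3 alone, 8 of 9 genes were lower, with S100a4 at -0.99, Anxa3 at -0.92 and Anxa1 at -0.51. Without both controls numbered 3, 7 of 9 were lower, with S100a4 at -0.45, Anxa3 at -0.63 and Anxa1 at -0.19. With array weights and with replicate number as a block, Anxa6 also fell below 0, at -0.01 and -0.02. With tier as a fixed term, estimated through WT CCl4 array 1, the control differences were -0.20 for S100a4, -0.71 for S100a6 and -0.90 for S100a11. In that fit they were -0.69 for Anxa2, -0.64 for Anxa3 and -0.17 for Anxa5, while Anxa1 was at 0.35 and Anxa6 at 0.31.

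**Figure D3:**
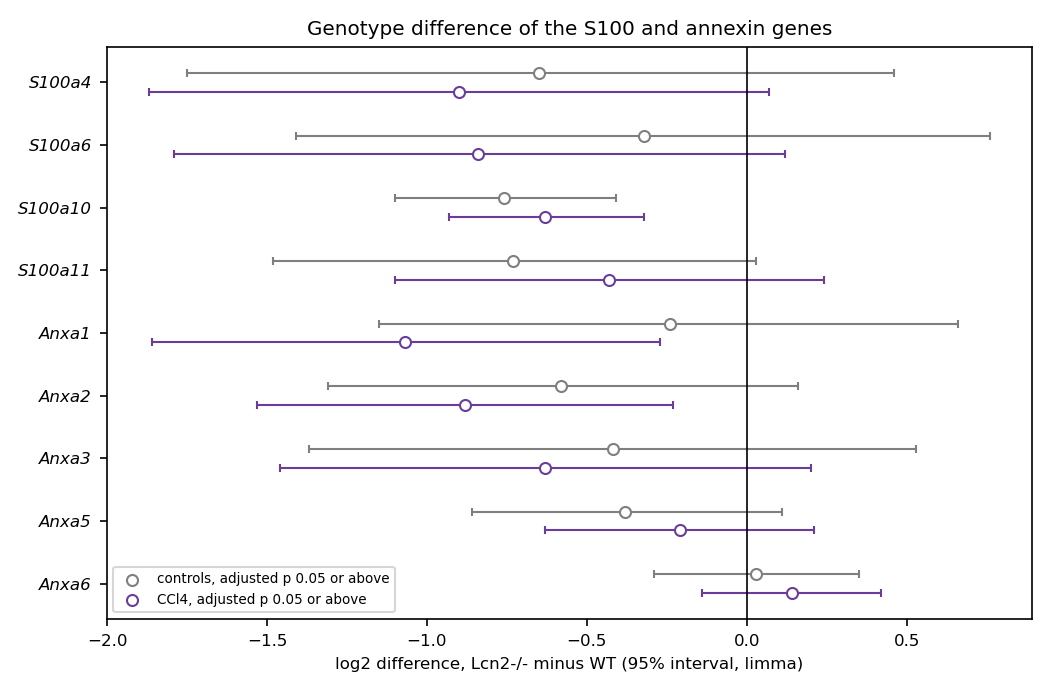
Log2 difference between Lcn2-/- and WT for each of the 9 genes with its 95% interval from limma, controls in grey and CCl4 in purple; open symbols mark an adjusted p of 0.05 or above, which held for all. The S100a10 values of -0.76 and -0.63 have the narrowest intervals among the 8 genes that measured lower.

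S100a10 was the gene of the 9 with the lowest adjusted p between genotypes in each comparison. All 7 Lcn2-/- arrays, 14.58 to 15.11, lay below 8 of the 9 WT arrays, and WT CCl4 array 3, at 15.03, was the one WT array below the highest Lcn2-/- array. By exact two-sided permutation test, p was 0.0238 under CCl4 and 0.0286 in controls, the smallest p that 3 arrays against 4 allow. The test ignores a possible pairing of the controls by replicate number, and 3 pairs alone could not reach 0.05. With any 1 array left out, p ranged from 0.0179 to 0.0571 under CCl4, where leaving out any CCl4 array except WT array 3 or Lcn2-/- array 4 brought it above 0.05, and from 0.0667 to 0.1 in controls, where it can go no lower than 0.0667. S100a10 was chosen for these tests after its values were seen, and the Benjamini-Hochberg p of 0.0317 for each, over the 6 permutation tests computed, does not cover that choice. Limma's adjusted p for S100a10 fell under 0.05 in both comparisons with normexp background correction, with the authors' processed values and with array weights. Without both controls numbered 3, the S100a10 differences were -0.63 (adjusted p = 0.0777) and -0.81 (0.147). Genotype and tier of the slide were nearly the same split. Within the lower tier, WT CCl4 array 1 at 15.31 lay above all 4 Lcn2-/- CCl4 arrays, a difference of -0.50 (adjusted p = 0.656). With tier as a fixed term the difference was -0.50 under CCl4 (adjusted p = 0.579) and -0.60 in controls (0.91), an estimate that rests on that array.

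Because S100A10 acts in a complex with annexin A2, the genes were also set against each other within arrays, as a description. The other 4 of the 6 permutation tests were run on these differences and support nothing here, since the pairs were formed after Anxa2 and S100a11 were seen to rise and S100a10 to differ little. The log2 signal of Anxa2 minus that of S100a10 was higher by 1.62 under CCl4 in WT and by 1.19 in Lcn2-/-. The difference S100a11 minus S100a10, for genes that neighbour each other, was higher by 1.48 in WT and by 1.65 in Lcn2-/-. WT control 3 stood highest among the WT controls in both measures and overlapped with the WT CCl4 arrays, whereas the Lcn2-/- groups did not overlap. With each array left out in turn the Anxa2 measure ranged from 1.45 to 2.02 in WT and from 1.02 to 1.33 in Lcn2-/-, and the S100a11 measure from 1.31 to 1.89 and from 1.51 to 1.76. These values restate the CCl4 differences of Anxa2, S100a11 and S100a10 and compare no levels between probes.

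**Figure D4:**
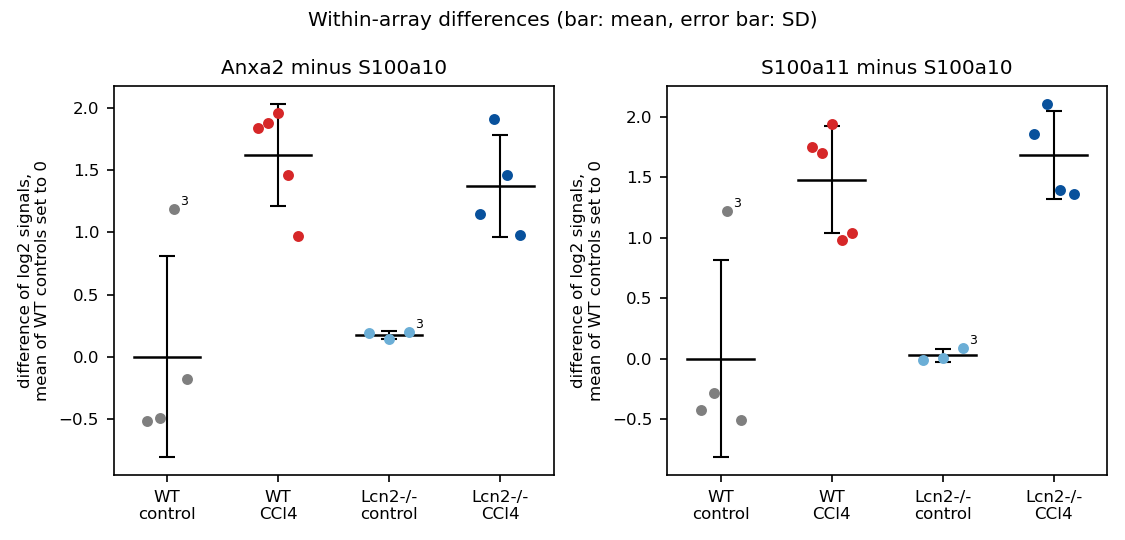
Log2 signal of Anxa2 (left) and S100a11 (right) minus that of S100a10 in each array, 1 point per array, with the mean of the WT controls set to 0 and bars for group mean and SD. The CCl4 group means lie above the control means of their genotype, by 1.62 and 1.19 for Anxa2 and by 1.48 and 1.65 for S100a11, and the digit 3 marks control array 3 of each genotype.

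The other genes of both families were read against the same threshold. Of all genes, 8.05% rose and 8.63% fell in WT by it, and 6.56% rose and 5.58% fell in Lcn2-/-. Of 12 other S100 genes, 10 were tested and S100a7a and S100a14 were not. In WT, 3 rose, among them S100a8 and S100a9, the subunits of the neutrophil protein calprotectin, by 2.31 (adjusted p = 0.034 by limma) and 1.96 (0.0463). The third was S100g, which encodes the vitamin D-dependent calbindin. S100a5 fell by 0.58 (adjusted p = 0.0171). In Lcn2-/- mice S100g and S100a3 rose, and S100a8 and S100a9 were at 1.47 and 1.24 (adjusted p of 0.248 and 0.286 by limma). The Lcn2-/- controls ranged from 9.33 to 13.16 for S100a8 and from 11.8 to 15.02 for S100a9. Under CCl4 the ranges were 11.8 to 12.6 and 13.98 to 14.46. For both genes the highest control thus lay above every Lcn2-/- CCl4 array and lowered the difference.

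S100g was not well above background in any control array and was so in 9 of 9 CCl4 arrays. Its signal ranged from 2.9 to 3.79 in WT control, 6.97 to 8.49 in WT CCl4, 3.06 to 3.73 in Lcn2-/- control and 7.28 to 7.92 in Lcn2-/- CCl4. The rise was thus at least 10.9-fold in WT (adjusted p = 1.69e-06 by limma) and at least 13.2-fold in Lcn2-/- (adjusted p = 9.11e-06). Such a bound takes the mean of the brighter group. The dimmer group enters with the array's lowest detected signal or with that of the probe, whichever is higher. S100a3, a protein of hair cuticle, was not well above background in Lcn2-/- controls and rose at least 1.68-fold under CCl4 (adjusted p = 0.00503). In WT its difference was -0.02 (adjusted p = 0.942), and the interaction of 0.77 did not pass the test (adjusted p = 0.876).

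Of 7 other annexins, 6 were tested and Anxa10 was not. Anxa9 alone passed the test, with a rise of 0.49 in WT (adjusted p = 0.0205 by limma) and a difference of 0.42 in Lcn2-/- (adjusted p = 0.0847). Median log2 differences of the 10 S100 genes were 0.07 for WT and 0.43 for Lcn2-/-. For the 6 annexins they were -0.14 and 0.05. Between genotypes and in the interaction, 0 of the 10 S100 genes and 0 of the 6 annexins passed.

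The list of partners and receptors held 17 genes of plasminogen activation, annexin and S100 binding proteins and their receptors. Of these, 15 were tested and Myof and Ager were not. Plat, the tissue plasminogen activator that the annexin A2 complex binds, rose by 3.56 in WT (adjusted p = 7.46e-05 by limma). Plat was not well above background in any Lcn2-/- control and under CCl4 it rose at least 17.2-fold (adjusted p = 0.000116). Plaur, the urokinase receptor, rose by 1.64 in WT (adjusted p = 0.0195) and by 2.01 in Lcn2-/- (adjusted p = 0.017). Plau, urokinase itself, rose by 2.07 in WT (adjusted p = 0.0498) and was at 1.02 in Lcn2-/- (adjusted p = 0.427). The Lcn2-/- CCl4 arrays ranged from 5.87 to 9.84 for Plau, on both sides of the Lcn2-/- controls at 6.21 to 7.91. Cacybp, which encodes the S100A6 binding protein calcyclin binding protein, rose by 0.56 in WT (adjusted p = 0.0464). Sugt1, another S100A6 target, fell by 0.34 in Lcn2-/- (adjusted p = 0.0368). Thus 4 of 15 rose in WT, where the median log2 difference was 0.11, and in Lcn2-/- mice 2 rose and 1 fell, with a median of 0.19. Over all genes, 8.05% rose in WT, and 6.56% rose and 5.58% fell in Lcn2-/-. None of the 15 passed the test between genotypes or in the interaction.

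Markers of some liver cell types rose under CCl4 as the S100 and annexin genes did, and those of others did not. Their part in the response was not tested. The shares of all genes to set beside the counts are 8.05% raised and 8.63% lowered in WT. In Lcn2-/- they are 6.56% and 5.58%. The 5 hepatocyte markers, Alb, Apoa1, Ttr, Hnf4a and Cps1, were well above background on all arrays, and 0 of 5 passed the test in either genotype. Of 7 stellate cell and myofibroblast markers, 6 rose in each genotype, and their summed signal went from 13100 to 45700 in WT control to 89600 to 180000 in WT CCl4. That sum in Lcn2-/- mice went from 8390 to 9580 in controls to 66500 to 99400 under CCl4. Of 6 macrophage markers, Cd68 and Lyz2 rose in both genotypes and Clec4f, of resident Kupffer cells, fell in WT. The macrophage sum overlapped between the groups, at 85200 to 239000 in WT control, 92000 to 143000 in WT CCl4, 91300 to 252000 in Lcn2-/- control and 112000 to 122000 in Lcn2-/- CCl4.

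Of 7 neutrophil markers, 4 rose in WT (S100a8, S100a9, Ngp and Camp) and 0 passed in Lcn2-/-. The neutrophil sum ranged from 11500 to 44700 in WT control, 37700 to 81500 in WT CCl4, 10400 to 60500 in Lcn2-/- control and 26700 to 38400 in Lcn2-/- CCl4, where the highest control value of each genotype was that of its array 3. S100a8 and S100a9 are on this list and among the other S100 genes. Of 4 mesothelial markers, 2 rose in WT and 1 in Lcn2-/-. Cholangiocyte markers gave 0 of 5 in both genotypes, and of 5 endothelial markers Lyve1 rose in both genotypes and Stab2 fell in WT. Of the 5 lymphocyte markers tested, 1 fell in WT. Amy2a5, of the 2 pancreas markers tested, rose in WT, and Cfd, the one fat marker tested, fell at least 4.36-fold in WT. For every list, 0 genes passed between genotypes. Stellate markers were among those that measured lower in Lcn2-/-, 6 of 7 in each genotype comparison, with median log2 differences of -0.36 under CCl4 and -0.57 in controls. Col1a1, a fibrillar collagen gene, was at -0.99 under CCl4 and -1.71 in controls (adjusted p of 0.355 and 0.224 by limma). Its signal spread from 11.07 to 13.98 in WT controls, against 10.33 to 10.67 in Lcn2-/- controls. The stellate sums of the control groups did not overlap. WT control 3, at 45700, stood far above the other WT controls, at 13100 to 17500, and raised the WT side of the control comparison. Neutrophil markers had a median of -0.79 under CCl4 (2 of 7 above 0) and 0.25 in controls (5 of 7 above 0). Macrophage medians were -0.37 and -0.11 (2 of 6 above 0 in each). Cholangiocyte and mesothelial medians went the other way under CCl4, at 0.48 and 0.44. The part of these cell types in the lower S100 and annexin values of Lcn2-/- mice was not tested.

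The 9 genes' own summed signal ranged from 125000 to 191000 in WT control, 213000 to 289000 in WT CCl4, 98300 to 117000 in Lcn2-/- control and 155000 to 202000 in Lcn2-/- CCl4. The sum was thus highest in WT CCl4, where each array exceeded every array of the other groups. In WT control 3, at 191000, it stood beside a stellate sum of 45700, a macrophage sum of 239000 and a neutrophil sum of 44700, each the highest of the WT controls. In Lcn2-/- control 3, at 117000, the macrophage and neutrophil sums were the highest of the controls and the stellate sum was 8790, inside the range of its group.

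**Figure D5:**
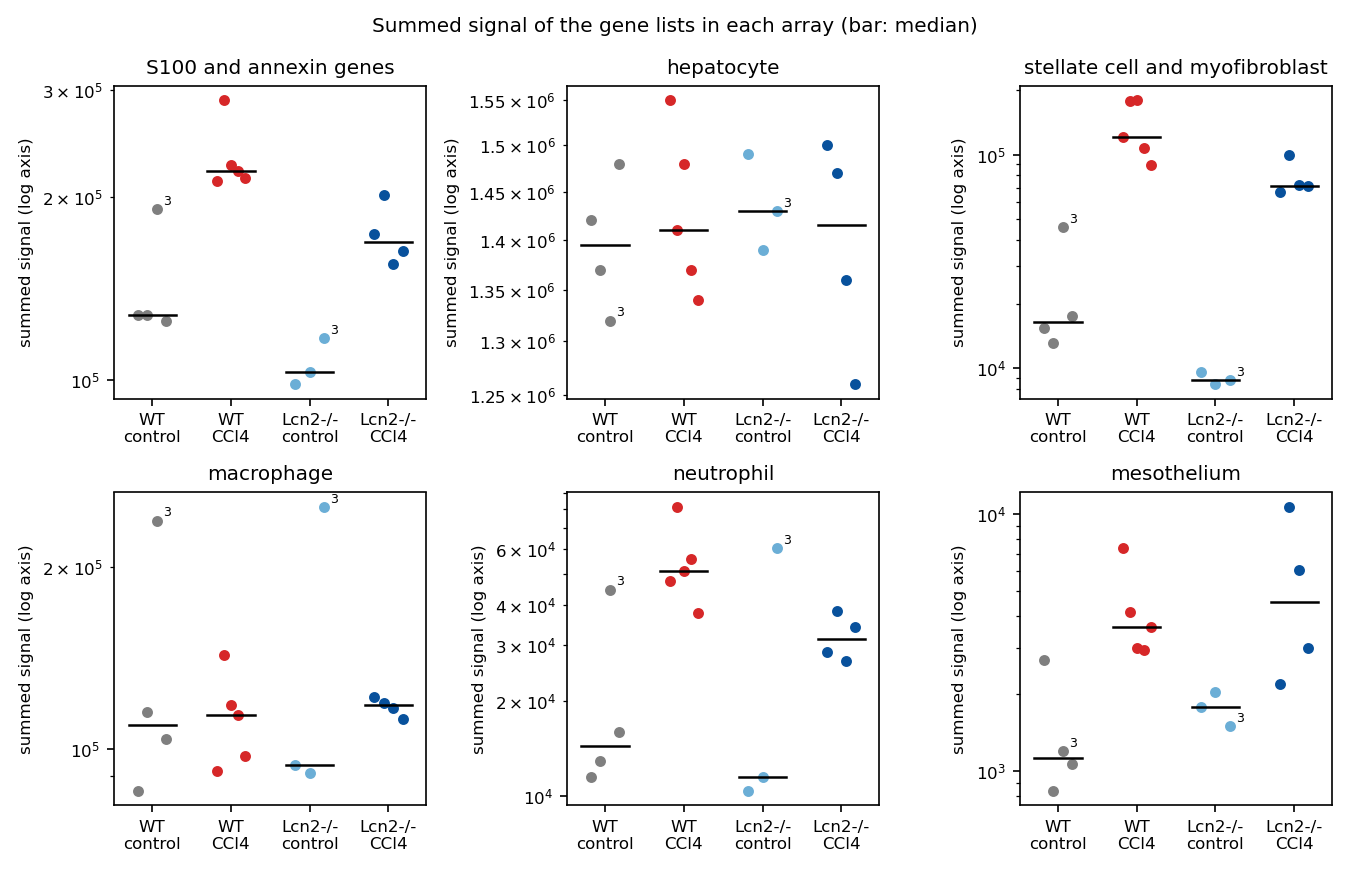
Summed linear signal of the 9 S100 and annexin genes and of 5 cell type marker lists in each array, on log axes, 1 point per array with the group median as a bar. The control arrays marked 3 reach 239000 and 252000 for the macrophage list, and the stellate list separates CCl4 from control arrays in both genotypes.

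For Anxa1, Anxa2, Anxa3, Anxa5 and S100a6, the genes outside the 9 with the most similar pattern were found. The measure was the root mean square difference of log2 values over the 16 arrays, each gene centred on its own mean. The values describe likeness over arrays that share the CCl4 contrast and carry no test. For Anxa2 they were B3gnt8 (0.225), Sparc (0.238), the matrix glycoprotein osteonectin, and Rftn1 (0.256), and the nearest of the 9 genes was S100a11 (0.274). For Anxa3 they were Cd84 (0.248) and Cd68 (0.251), both leukocyte surface or lysosomal proteins, and Tmem221 (0.332).

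For Anxa1 the closest were an unnamed transcript that the files describe under the older name of Gpr137b (0.235), Pdgfrl (0.327) and Gpr137b itself (0.329). For S100a6 they were Plp2 (0.308), Emp3 (0.352) and Cdca7l (0.379), and the nearest of the 9 genes, Anxa2, was at 0.344. For Anxa5 they were Cnn2 (0.13), Ppp1r9b (0.15) and Sod3 (0.162). Against these distances, the root mean square of each gene around its own mean was 1.36 for Anxa1, 1.16 for Anxa3, 1.01 for S100a6, 0.934 for Anxa2 and 0.483 for Anxa5. Anxa1 and Anxa3 were each other's nearest among the 9 genes, at 0.464, and so were Anxa2 and S100a11.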

How the data were processed

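RNA of 16 mouse liver samples was labelled with Cy3 and hybridised to Agilent 1-colour arrays. The authors deposited 1 scanner file per array with spot intensity values, background-subtracted and detrended by the image software but not normalized between arrays. A table of log2 values was deposited as well. For 99.86% of its entries, quantile normalization of log2 median signal less local background gave the same number to within 0.05, and the table served as an alternative.

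The 3671 control spots and outlier spots were left out, and log2 processed signals were quantile normalized, as the study's methods name. Spots of a probe were averaged. A probe was tested if 3 or more arrays had it well above background, which left 33022 probes, and the brightest stood for each of 24363 genes. RefSeq accessions (GRCm38.p6) updated the names of 49.8% of gene spots. Probe positions are the files' own, on mm9, and whether they fall in exons or UTRs was not analysed here. The 75th percentile of signal ranged from 842 to 2067 between arrays, 0 gene spots were saturated, and the number of arrays limits the precision.

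One limma model (version 3.58.1, R 4.3.3, lmFit and eBayes) held all 4 groups with no covariate, and p-values were adjusted by Benjamini-Hochberg within each contrast, with a threshold of 0.05. Alternatives changed the scaling, background correction, filter, array weights, slide, tier and replicate terms, or left out arrays. The scripts were tested on simulated data. All 9 genes are named, with each gene of the other S100, annexin and partner lists past the threshold and the 3 genes most like each raised gene. The genes most like S100a11 are not reported here. The genes, lists and markers were chosen with earlier results of these data known.

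Replicate numbers are shared across groups. Same-numbered WT and Lcn2-/- controls deviated together (r of 0.233, 0.368 and 0.552 across genes). They also lay in the same column of slide 1, so a pairing of samples and an effect of column cannot be told apart. The highest r was that of the controls numbered 3, and the labels state no pairing. On this r the numbers were taken to pair the controls, and no other comparison met that rule.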

Additional observations from a re-analysis of the deposited data

Results flagged for a closer look

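In WT control array 3, S100a11 measured 12.13 against 10.42 to 10.54 in the other 3 WT controls. Its gap to the nearest array was 0.926 of the group's whole range, above the 95% critical value of 0.829 for 4 samples. Of 27 groups of 4 or 5 arrays examined in this way over the 9 genes, this was the 1 that passed, and chance alone passes about 1 group in 20. The same array was the highest WT control for 7 of the 9 genes.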

How the results depend on the processing

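The limits are few arrays, CCl4 nearly split by slide and genotype by tier, and a control numbered 3 in each genotype that stands apart. With slide as a fixed block, 1 of 9 genes passed in WT (6 in the reported fit) and 0 in Lcn2-/- (5), while the share of all genes that rose went from 8.05% to 3.31% and from 6.56% to 1.38%. The Lcn2-/- differences of S100a11, Anxa2 and Anxa3 were 1.98, 1.47 and 2.11 there, against 1.81, 1.35 and 1.89. Within slide 1, 0 passed in WT, and within the upper tier, added after the data were seen with the other tier settings and the omission of both controls 3, 3 did. Within slide 1 1.85% and within the upper tier 6.29% of all genes rose. The calls lost within the upper tier were those of S100a6, S100a11 and Anxa5 (adjusted p of 0.0615, 0.0501 and 0.0979 by limma). The cause of these losses was not tested. With array weights S100a4 passed in WT and S100a6 in Lcn2-/- as well, where 12.7% and 13.3% of all genes rose. With each array left out in turn, 4 to 7 passed in WT and 2 to 5 in Lcn2-/-, the lowest without Lcn2-/- control 1 or 2, and 0 to 1 in each genotype comparison (0 reported). The share of all genes that rose in WT ranged from 5.56% without WT control 1 to 10.1% without WT control 3, and in Lcn2-/- it was 4.26% and 4.37% without Lcn2-/- control 1 and 2. Under CCl4 1 gene passed between genotypes with normexp background correction, the authors' processed table, array weights (each S100a10) or both controls 3 left out (Anxa2). The share of all genes lower in Lcn2-/- was 0.456%, 0.423%, 0.759% and 0.603% there, against 0.349% as reported. In controls 1 gene, S100a10, passed with normexp background correction, the authors' table, array weights, within slide 1 and with only the groups compared, where 0.242%, 0.369%, 2.97%, 0.193% and 0.193% of all genes were lower, against 0.291% as reported.

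The sign changed only for values that had not passed. S100a10 in WT went to -0.16 with 75th percentile scaling, -0.02 with array weights, -0.1 with slide as a fixed block or within slide 1 and -0.05 with the replicate block, and ranged from -0.05 to 0.13 with an array left out. S100a10 in Lcn2-/- went to -0.0023 with slide as a fixed block, where Anxa6 in WT went to -0.01, as within slide 1. In controls between genotypes, S100a6 went to 0.15 without WT control 3 and 0.08 without both controls 3, Anxa1 to 0.08 without WT control 3 and 0.35 with tier as a fixed block, and Anxa6 to -0.01 with array weights, -0.02 with the replicate block and -0.05 and -0.01 without WT control 4 and Lcn2-/- control 2. In the interaction, S100a4 went to 0.07 and 0.09 without WT control 2 and Lcn2-/- control 3, Anxa3 to 0.11 and 0.30 without the same arrays and 0.0044 without both controls 3, S100a11 to -0.11 without WT control 3 and -0.02 without both controls 3, and Anxa5 to -0.04 without WT control 3. With an array left out in turn, the interaction ranged from -0.79 to 0.09 for S100a4, from -0.11 to 0.46 for S100a11 and from -0.5 to 0.30 for Anxa3, and the control difference from -0.66 to 0.15 for S100a6 and from -0.51 to 0.08 for Anxa1.

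With the replicate number as a block, 6 genes passed in WT, 5 in Lcn2-/- and 0 in each other contrast, so this block changed no call. Of all genes, 7.18% rose in WT and 6.44% in Lcn2-/- in that fit, and 0.14% under CCl4 and 0.193% in controls were lower in Lcn2-/-. S100a10 in controls was then at -0.71 (adjusted p = 0.129 by limma).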
